A study of Mus musculus with 24 samples.

Results

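Mouse spinal cord RNA was compared between day 14 and day 7 after spared nerve injury, using the 3 input RNA-seq libraries of each day out of 24 samples in the series. Spared nerve injury is a model of neuropathic pain in which the common peroneal and tibial nerves are ligated and cut while the sural nerve is left intact. Input libraries are the RNA before enrichment for N6-methyladenosine (m6A), made from poly(A)-selected RNA of the spinal cord. The other groups are day 3 after the same injury and sham surgery, in which the sciatic nerve and its branches were only exposed; sham is labelled day 3, so no sham cord matched day 7 or day 14, and injury and time after surgery cannot be told apart here. The sources used here give no strain, age, sex or cord segment, and do not say if separate mice stand behind the 3 libraries of a day. The p-values therefore cover only variation between libraries, which may be technical.

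Injury of peripheral nerve branches leaves the cord itself uncut, but the cell bodies of cut motor axons and the central ends of cut sensory axons lie within it, and microglia, astrocytes and oligodendrocytes around them are known to respond. Oligodendrocytes wrap axons in myelin, a membrane rich in cholesterol and galactolipids that these cells largely make themselves, so myelin protein genes and genes of sterol and galactolipid synthesis are often described together. Haemoglobin transcripts mark red cells, S100a8 and S100a9 mark neutrophils, and glucocorticoid and clock genes vary with stress and with the time of day.

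Levels were deposited as FPKM (fragments scaled to transcript length and to the mapped total) for 32884 genes, and 15545 genes with a mean of at least 0.5 FPKM over the 6 libraries were tested. Depth is unknown because read counts were not used here. FPKM summed to 197878 to 199557 in 5 libraries and to 181738 in day 7 library 3, and 13408 to 13446 genes per library reached 1 FPKM. Day 7 library 3 stood apart: its correlation with the other 5 across genes was 0.938 to 0.942, against 0.985 to 0.988 within and 0.984 to 0.987 between days for the others. Among the 94 most abundant genes (at least 200 FPKM), ratios between 2 libraries spread by 1.33 to 1.72% within a day, 4.75 to 5.73% between days and 36.0 to 38.9% against day 7 library 3. The remaining libraries of a day were thus close to identical for abundant genes, and at 1 to 2 FPKM (2274 genes) the spreads within (16.4 to 18.0%) and between days (18.6 to 19.5%) were near each other. Spinal cord markers were abundant in all 6 libraries, with summed levels of 4304 to 5472 FPKM for myelin, 1312 to 1603 for astrocyte, 459 to 515 for cholinergic and motor neuron and 334 to 397 for inhibitory neuron genes. Schwann cell and root markers summed to 48.4 to 55.3 FPKM, most of it Pmp22, which other cells also make, and skeletal muscle markers to 1.35 to 15.7 FPKM.

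With all 6 libraries, no gene passed an adjusted p of 0.05 in limma (0 higher and 0 lower, 0% of the genes tested), and 545 had an unadjusted p below 0.05. With array weights, which let libraries count unequally, 32 and 95 passed. The smallest adjusted p was 0.0971, for the neutrophil gene S100a9. Without day 7 library 3, on the same genes, 45 were higher on day 14 (0.289% of the genes tested) and 112 were lower (0.72%). The median log2 fold change was 0.40 among the higher and -0.30 among the lower genes, against 0.02 over all genes, and 13 changed by a log2 of at least 1. All log2 fold changes were computed after adding 0.5 to FPKM, which shrinks those of low genes. Below, "rose" and "fell" refer to this fit of 5 libraries, and the value of library 3 is given beside it.

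The call counts rested on every remaining library: with 1 more left out, the total was 23 without day 7 library 1, 31 without day 7 library 2, and 42, 33 and 39 without day 14 library 1, 2 and 3. Library 3, which did not enter the fit, lay on the same side of all day 14 values as day 7 libraries 1 and 2 for 31 of the 45 higher genes (68.9%) and 60 of the 112 lower genes (53.6%). Over all genes tested, all day 14 values were above library 3 for 45.3% and below it for 41.6%. It lay on the opposite side for 13 higher and 46 lower genes. All 3 day 14 values were above all 3 day 7 values for 10.7% of the genes tested, and below them for 6.44%. Against day 7 libraries 1 and 2 alone these shares were 20.2% above and 13.1% below.

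**Figure D1:**
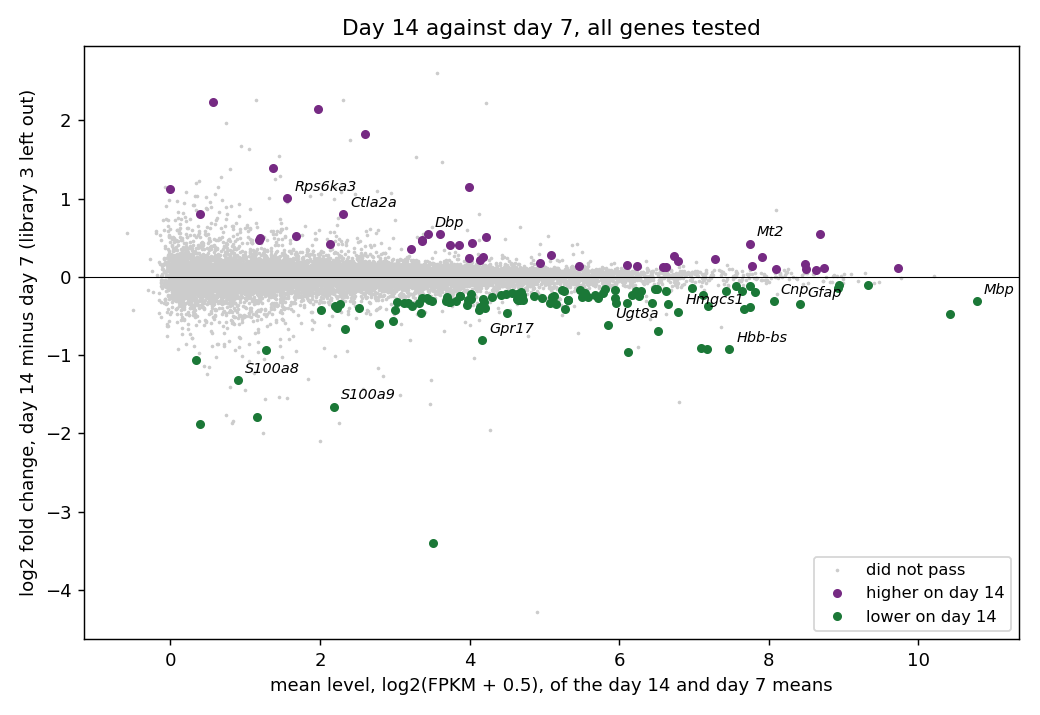
Each point is a gene, with its level (horizontal axis, log2 of FPKM + 0.5) and its log2 fold change of day 14 over day 7 libraries 1 and 2 (vertical axis); coloured points passed in limma without day 7 library 3. The 112 genes that fell include the abundant myelin genes at the right, and most of the 45 that rose and 112 that fell lie within a log2 of 1 of no change.

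Myelin genes were lower on day 14 than in day 7 libraries 1 and 2. Of 15 tested, 11 fell, 0 rose and 4 did not pass, with a median of -0.31 against 0.02 for all genes; with all 6 libraries 0 passed and the median was -0.25. Mbp, myelin basic protein (ENSMUSG00000041607), was at 1946, 1946 and 1968 FPKM on day 7 and at 1564, 1574 and 1569 FPKM on day 14. The 3 day 14 libraries lay below all 3 day 7 libraries, library 3 included, and the log2 change was -0.31 ± 0.01 (moderated SE, adjusted p = 0.000295; -0.32 ± 0.06 with all 6, adjusted p = 0.754).

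Ugt8a, which makes the galactocerebroside of myelin (ENSMUSG00000032854, chromosome 3, 125865271 to 125938619), was at 69.0, 70.0 and 68.7 FPKM on day 7 and at 44.3, 46.1 and 45.0 FPKM on day 14. The groups did not overlap and library 3 was level with the other day 7 libraries: the change was -0.62 ± 0.02 without it (adjusted p = 0.000921) and -0.61 ± 0.07 with it (adjusted p = 0.199). Mal, a myelin membrane protein, was at 231, 233 and 277 FPKM on day 7 and at 175, 173 and 176 FPKM on day 14 (-0.41 ± 0.01, adjusted p = 0.00067). Here library 3 lay farther from day 14 than the other 2 day 7 libraries did.

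Cnp, a myelin-associated phosphodiesterase, depended on library 3. It was at 295, 297 and 193 FPKM on day 7 and at 240, 239 and 237 FPKM on day 14, so library 3 lay below every day 14 library. It fell by 0.31 ± 0.01 on the log2 scale without library 3 (adjusted p = 0.00094) and stood at -0.10 ± 0.18 with it (adjusted p = 0.811). Mag, an adhesion molecule facing the axon, and Opalin, an oligodendrocyte membrane protein, also fell without library 3 but had library 3 below day 14. Over the list, all 3 day 14 libraries were below day 7 libraries 1 and 2 for 14 of 15 genes, against 13.1% of all genes tested. They were below all 3 day 7 libraries for 8 of the 15, against 6.44%. These counts are not independent of the fit that made the calls. Against library 3 alone the median was -0.12. Of the 11 genes that fell, 7 still passed without day 7 library 1 or day 7 library 2, and 8 without any 1 of the day 14 libraries.

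Fa2h, which hydroxylates the fatty acids of galactolipids, and Gal3st1, which sulphates them, showed the same split; both were named after their values were seen. Fa2h was at 67.5, 69.7 and 39.4 FPKM on day 7 and 56.2, 54.2 and 53.4 FPKM on day 14 (-0.33, adjusted p = 0.016). Gal3st1 was at 18.8, 20.2 and 7.36 FPKM on day 7 and 14.9, 14.8 and 14.8 FPKM on day 14 (-0.38, adjusted p = 0.0201). Library 3 was the lowest of the 6 for both.

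**Figure D2:**
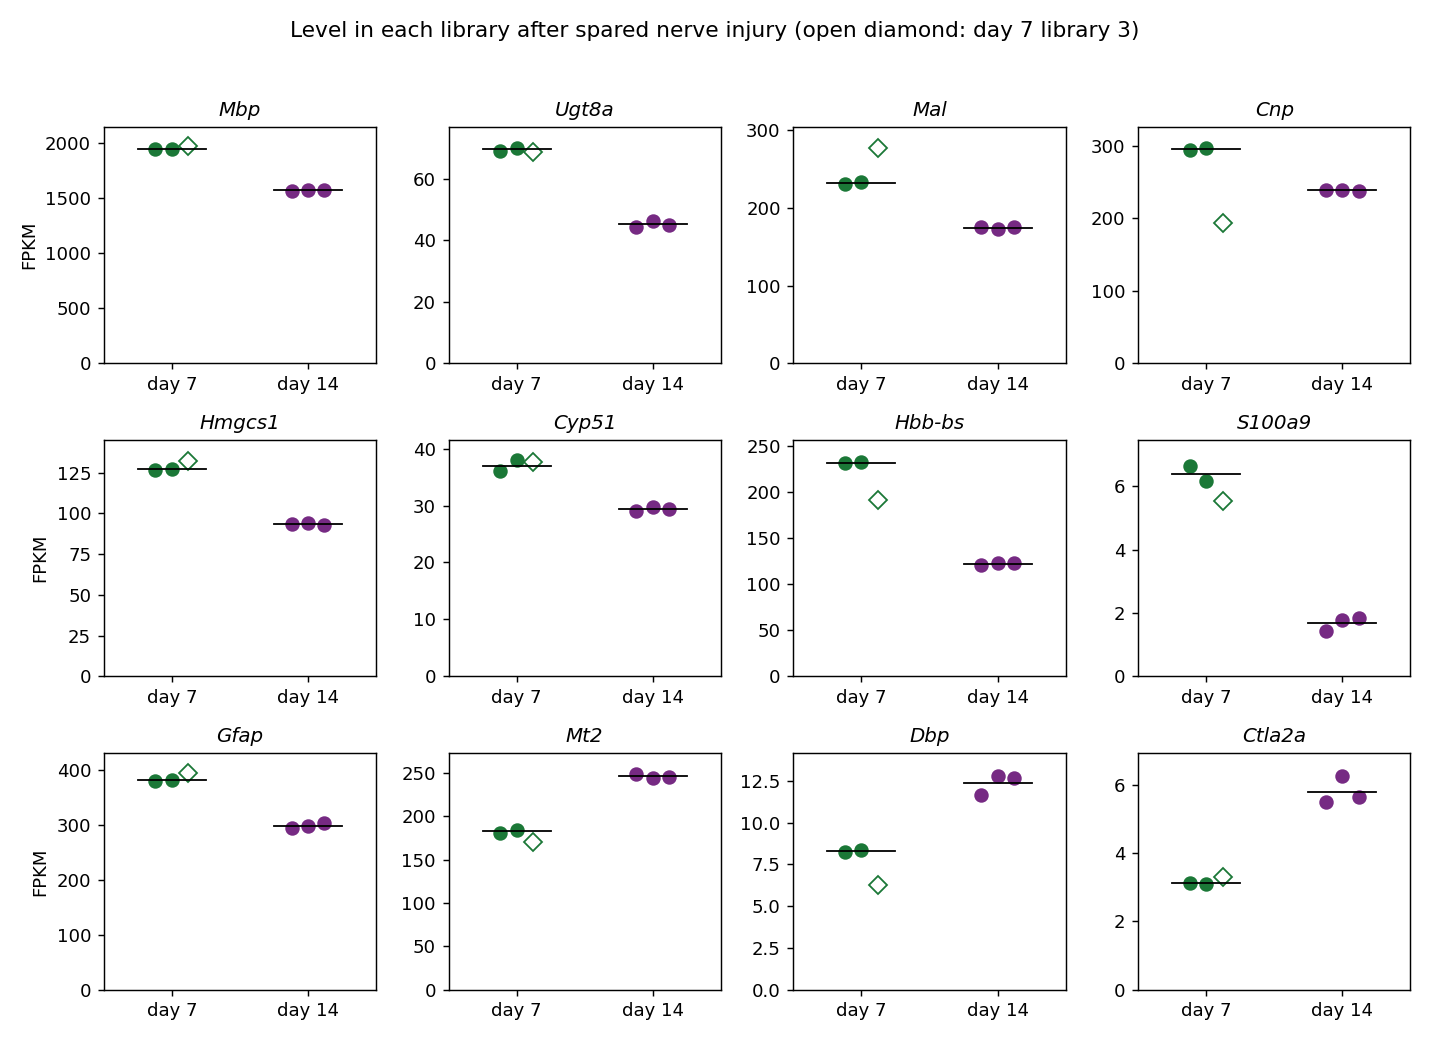
FPKM (vertical axis, from 0) of 12 genes in each library on day 7 and day 14; horizontal bars are the mean of day 7 libraries 1 and 2 and of the 3 day 14 libraries, and the open diamond is day 7 library 3. Library 3 sits with the other day 7 libraries for Mbp and Ugt8a, and below all day 14 libraries for Cnp at 193 FPKM.

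Genes of oligodendrocyte precursors and of their early differentiation had 4 of 10 lower, 0 higher and a median of -0.25 (-0.21 with all 6 libraries, where 0 passed). Gpr17, a receptor that marks precursors committed to differentiate, was at 22.5, 22.3 and 14.98 FPKM on day 7 and at 12.5, 12.6 and 12.7 FPKM on day 14 (-0.81 ± 0.03, adjusted p = 0.000586). Library 3 lay between the other day 7 libraries and day 14. Olig2, a lineage transcription factor, was at 19.3, 19.8 and 21.7 FPKM and then 14.8, 14.5 and 14.2 FPKM (-0.42 ± 0.03, adjusted p = 0.00989), and Enpp6, a marker of newly forming oligodendrocytes, at 11.1, 11.4 and 12.1 and then 8.42, 8.09 and 7.62 FPKM (-0.47 ± 0.05, adjusted p = 0.0248). For both, all day 14 libraries were below all day 7 libraries. Olig1, a close relative of Olig2, fell without library 3 but was at 52.0 FPKM in library 3, below its 65.2 to 66.6 FPKM on day 14. Of these 4 genes, 1 still passed without day 7 library 1, day 7 library 2 or day 14 library 2, and 2 without day 14 library 1 or 3; Gpr17 passed in all 5 of these fits. In bulk tissue, fewer cells of a type and less RNA per cell cannot be told apart.

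Of 20 genes of sterol and fatty acid synthesis tested, 11 fell, 0 rose and 9 did not pass, with a median of -0.23. All 3 day 14 libraries were below day 7 libraries 1 and 2 for 17 of the 20, against 13.1% of all genes tested. With all 6 libraries 0 passed and the median was -0.13, and against library 3 alone it was -0.01. Hmgcs1, which makes HMG-CoA for the sterol pathway (ENSMUSG00000093930, chromosome 13, 119690379 to 119708260), was at 127, 127 and 132 FPKM on day 7 and at 93.2, 93.8 and 92.7 FPKM on day 14 (-0.44 ± 0.01, adjusted p = 0.00067; -0.46 ± 0.06 with all 6, adjusted p = 0.431). Cyp51, which removes a methyl group from lanosterol, was at 36.0, 38.0 and 37.7 FPKM and then 29.1, 29.8 and 29.4 FPKM (-0.33 ± 0.03, adjusted p = 0.0178). All day 14 libraries were below all day 7 libraries for both genes.

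Msmo1, which follows Cyp51 in the pathway, Sqle, which oxidises squalene, Sc5d, a sterol desaturase, and the fatty acid desaturases Scd1 and Scd2 also fell with library 3 on the day 7 side. Lss, which closes the lanosterol rings, and Dhcr7, a reductase of the last steps, fell without library 3 but were lower in library 3 than on day 14. Dhcr7, for example, was at 12.1, 11.8 and 6.13 FPKM on day 7 and at 9.58, 9.96 and 9.23 FPKM on day 14. Hmgcs1 was the only one of the 11 that passed in each fit with 1 more library left out.

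The promoters of 3 members are shown because sterol-responsive and metal-responsive genes are classically read through short elements upstream of their start. Of the 20 sterol genes, 12 had an entry in the RefSeq promoter table (build GRCm38.p6), which holds 250 bases before to 50 after each start. The sterol element TCACNCCAC, searched on both strands, was in 1 of these 12, Hmgcs1, at bases -137 to -129, and in 1.24% of 32851 promoters. The 250 bases before the Hmgcs1 start, on the plus strand (chr13:119690101-119690350, GRCm38.p6), are printed with the element in capitals. Mt1 (chr8:94178839-94179088) and Mt2 (chr8:94172368-94172617), also on the plus strand, are printed with the core of the metal-responsive element, TGCACNC or TGCGCNC on either strand, in capitals. A match describes these letters and shows no binding.
Hmgcs1: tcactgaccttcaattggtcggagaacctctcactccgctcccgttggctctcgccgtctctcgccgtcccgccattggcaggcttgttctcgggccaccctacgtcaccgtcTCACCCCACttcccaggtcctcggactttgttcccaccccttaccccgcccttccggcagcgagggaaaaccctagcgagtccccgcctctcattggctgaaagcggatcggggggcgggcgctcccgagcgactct
Mt1: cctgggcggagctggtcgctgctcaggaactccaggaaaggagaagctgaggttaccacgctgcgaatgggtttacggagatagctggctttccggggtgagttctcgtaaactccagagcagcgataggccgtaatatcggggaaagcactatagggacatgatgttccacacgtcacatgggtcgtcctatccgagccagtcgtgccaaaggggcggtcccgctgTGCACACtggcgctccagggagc
Mt2: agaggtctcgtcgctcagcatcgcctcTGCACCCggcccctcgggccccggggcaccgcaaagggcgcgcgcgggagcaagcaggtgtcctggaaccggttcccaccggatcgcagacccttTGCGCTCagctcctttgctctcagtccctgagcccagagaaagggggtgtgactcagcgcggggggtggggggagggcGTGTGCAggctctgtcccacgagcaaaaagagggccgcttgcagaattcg

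Red cell and neutrophil genes had the largest group decreases. Of 7 erythroid genes tested, 5 fell and 0 rose, with a median of -0.92 (-0.83 with all 6 libraries, where 0 passed). Hbb-bs, an adult beta globin (ENSMUSG00000052305, chromosome 7, 103826534 to 103828096), was at 232, 232 and 191 FPKM on day 7 and at 121, 123 and 123 FPKM on day 14 (-0.92 ± 0.02, adjusted p = 7.84e-05; -0.83 ± 0.10 with all 6, adjusted p = 0.222). Every day 14 library was below every day 7 library. The alpha globins Hba-a1 and Hba-a2 and the beta globin Hbb-bt changed by -0.92, -0.91 and -0.96. Both alpha globins are almost the same sequence, as are both beta globins, so how reads divide within each pair is uncertain.

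Alas2, which starts haem synthesis in red cell precursors, was at 2.65, 2.72 and 2.27 FPKM on day 7 and at 1.35, 1.06 and 1.10 FPKM on day 14 (-0.94 ± 0.10, adjusted p = 0.024). Bpgm, which makes a ligand that lowers the oxygen affinity of haemoglobin, did not pass (-0.11). The globins passed in each fit with 1 more library left out, while Alas2 passed in 1 of the 5. How much blood each cord held was not tested.

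S100a9, a calcium-binding protein abundant in neutrophils (ENSMUSG00000056071, chromosome 3, 90692632 to 90695721), was at 6.66, 6.16 and 5.54 FPKM on day 7 and at 1.45, 1.79 and 1.85 FPKM on day 14 (-1.66 ± 0.10, adjusted p = 0.00405; -1.59 ± 0.12 with all 6, adjusted p = 0.0971). Its partner S100a8 was at 2.26, 2.08 and 2.67 FPKM and then 0.626, 0.581 and 0.509 FPKM (-1.31 ± 0.09, adjusted p = 0.00819; -1.40 with all 6, adjusted p = 0.117). For both, the groups were far apart and library 3 lay with day 7. Ngp, a neutrophil granule protein, was lower in every day 14 library without passing (-1.14, adjusted p = 0.0677), and Lcn2, a lipocalin that astrocytes also make, was at -0.02. Of the 4 neutrophil genes tested, 2 fell, with a median of -1.23. Without day 7 library 1 neither passed, and without day 7 library 2 or day 14 library 2 only 1 did.

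**Figure D3:**
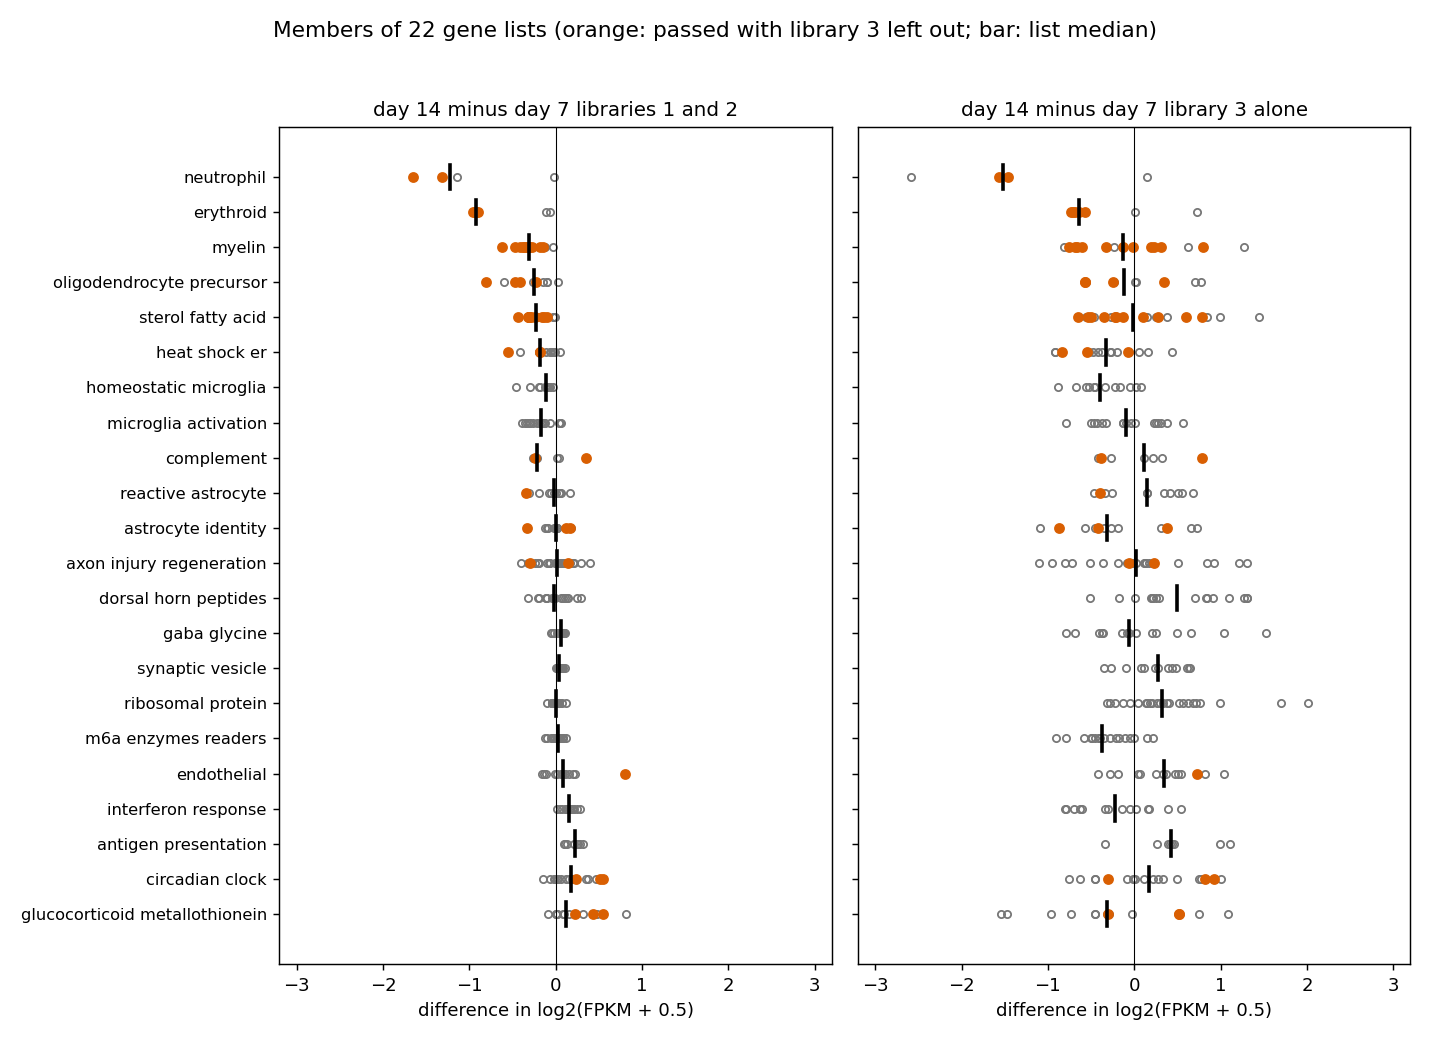
Members of 22 gene lists by their difference in log2(FPKM + 0.5), day 14 minus day 7 libraries 1 and 2 (left) and day 14 minus day 7 library 3 alone (right); orange points passed without library 3 and bars are list medians. Neutrophil and erythroid medians are below 0 in both panels (-1.23 and -0.92 at left), while the sterol median moves from -0.23 to -0.01.

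Among astrocyte genes, Gfap, the intermediate filament raised in reactive astrocytes, fell. It was at 381, 381 and 394 FPKM on day 7 and at 295, 299 and 304 FPKM on day 14 (-0.35 ± 0.02, adjusted p = 0.0014; -0.37 ± 0.06 with all 6, adjusted p = 0.754). All day 14 libraries were below all day 7 libraries, and Gfap passed in each fit with 1 more library left out. It was the only one of 11 reactive astrocyte genes that passed, and the list median was -0.02. Of 12 genes of astrocyte identity, Aqp4, the water channel of astrocyte end-feet, fell (96.05, 96.6 and 140 FPKM on day 7, 75.4, 76.2 and 76.9 FPKM on day 14). Aldoc, a glycolytic enzyme, and Glul, glutamine synthetase, rose, but Glul was at 506 FPKM in library 3, above its 375 to 378 FPKM on day 14.

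No gene of the microglial lists passed. The 12 homeostatic microglial genes had 0 past the threshold and a median of -0.11. All 3 day 14 libraries were below day 7 libraries 1 and 2 for 6 of the 12 genes, and below all 3 day 7 libraries for 6. Over all genes tested these shares were 13.1% and 6.44%. Csf1r, the receptor microglia need to survive, was at 14.88, 14.995 and 14.1 FPKM and then 13.8, 13.8 and 13.6 FPKM (adjusted p = 0.143). The 17 activation genes had 0 past the threshold and a median of -0.18, with Itgam, a complement receptor chain, at 5.61, 5.37 and 7.86 FPKM and then 4.10, 4.41 and 4.51 FPKM (adjusted p = 0.0923). Of 7 complement genes, C1qb fell (37.4, 37.3 and 41.4 FPKM, then 31.7, 32.2 and 30.9 FPKM; adjusted p = 0.0256) and C4b rose (7.56, 7.69 and 5.54 FPKM, then 9.52, 9.92 and 10.2 FPKM; adjusted p = 0.0312). Neither passed in any fit with 1 more library left out. The 8 chemokine and 13 lysosome genes had 0 past the threshold, and Ccl7, a monocyte chemokine, was at -0.88 (adjusted p = 0.15).

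Interferon-response genes (14 tested) and antigen presentation genes (8 tested) had 0 past the threshold, with medians of 0.16 and 0.23. Against library 3 alone the interferon median was -0.22 and the antigen presentation median 0.43. H2-K1, a class I molecule, was at 9.94, 9.69 and 9.25 FPKM on day 7 and at 12.9, 11.9 and 12.2 FPKM on day 14 (adjusted p = 0.0516). H2-Q6, a related class I gene, rose at low level, from 0.418, 0.489 and 0.617 FPKM to 1.30, 1.07 and 1.14 FPKM (0.81 ± 0.11, adjusted p = 0.0463). Class I genes are alike in sequence, so how reads divide between them is uncertain.

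Few genes that neurons raise after axon cutting passed between the days. Of 25 tested, Csrp1, a LIM-domain protein, rose (0.14) and Jun, a transcription factor of the injury response, fell (-0.30), and the median was 0.01. Neither passed in any fit with 1 more library left out. Atf3, induced when axons are cut, was at 8.02, 7.75 and 10.5 FPKM on day 7 and at 5.97, 5.32 and 6.20 FPKM on day 14. Its groups did not overlap, but it did not pass (-0.41 ± 0.07, adjusted p = 0.084; -0.54 with all 6, adjusted p = 0.754). Jun was also the only one of 19 immediate early genes to pass. Prph, a filament of motor and sensory neurons and a member of both those lists, fell without library 3 (52.5, 51.2 and 23.5 FPKM, then 42.7, 43.7 and 43.8 FPKM) and was lowest in library 3.

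Ctla2a, a cathepsin inhibitor that was listed here among endothelial genes (ENSMUSG00000044258, chromosome 13, 60934155 to 60936625), rose. It was at 3.12, 3.10 and 3.31 FPKM on day 7 and at 5.51, 6.26 and 5.65 FPKM on day 14 (0.80 ± 0.06, adjusted p = 0.0115; 0.78 ± 0.09 with all 6, adjusted p = 0.204). Library 3 lay with the other day 7 libraries. It was the only one of 14 endothelial genes that passed, and it did not pass without day 7 library 1, day 7 library 2 or day 14 library 3. Ptgds, a prostaglandin synthase of the meninges, was the only one of 13 meningeal genes to rise (222, 218 and 215 FPKM, then 258, 268 and 259 FPKM), and Cfap126, a cilium protein, the only one of 7 ependymal genes.

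Glucocorticoid-responsive and metallothionein genes had 3 of 14 higher and 0 lower, with a median of 0.12 (0.01 with all 6 libraries, where 0 passed). Against library 3 alone the median was -0.31. All day 14 values were below library 3 for 9 of the 14 genes and above it for 4. Over all genes tested these shares were 41.6% and 45.3%. Mt2, a metal-binding metallothionein (ENSMUSG00000031762, chromosome 8, 94172664 to 94173568), was at 181, 184 and 171 FPKM on day 7 and at 249, 244 and 245 FPKM on day 14 (0.43 ± 0.02, adjusted p = 0.00088; 0.46 ± 0.07 with all 6, adjusted p = 0.487). Its neighbour Mt1 was at 140, 147 and 117 FPKM and then 167, 166 and 169 FPKM (0.22 ± 0.03, adjusted p = 0.0307). For both, all day 14 libraries were above all day 7 libraries. Sgk1, a kinase induced by glucocorticoids, also rose, from 9.46 and 9.32 FPKM to 14.3, 13.5 and 14.3 FPKM, but library 3 was at 17.3 FPKM. Mt2 passed in each fit with 1 more library left out, while Sgk1 passed in 3 and Mt1 in 1 of the 5. The metal element core lay in the promoter windows of 5 of the 13 members with an entry, among them these 3, and in 25.7% of all promoters. Mt2 held 3 matches before its start, at -223 to -217, -128 to -122 and -50 to -44, the last on the minus strand, and Mt1 held 1, at -23 to -17.

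Clock genes had 3 of 18 higher and 0 lower, with a median of 0.17 (0.12 with all 6 libraries, where 0 passed). Dbp, a clock-controlled transcription factor (ENSMUSG00000059824, chromosome 7, 45705088 to 45710203), was at 8.25, 8.34 and 6.29 FPKM on day 7 and at 11.7, 12.8 and 12.7 FPKM on day 14 (0.55 ± 0.05, adjusted p = 0.014; 0.67 ± 0.12 with all 6, adjusted p = 0.754). Nr1d1, a repressor in the clock loop, was at 15.3, 14.5 and 11.8 FPKM and then 21.1, 20.5 and 22.5 FPKM (0.51 ± 0.05, adjusted p = 0.0196). Both had every day 14 library above every day 7 library. Its relative Nr1d2 rose without library 3 but was at 20.6 FPKM in library 3, above its 16.4 to 16.8 FPKM on day 14. With 1 more library left out, Dbp passed only without day 14 library 1 and the other 2 in no fit. The palindromic E-box CACGTG was in the windows of 5 of 15 clock genes with an entry, 0 of the 3 that rose, and in 7.15% of all promoters. No source used here gives the time of day at collection, and its part in these values was not tested.

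Chaperone and endoplasmic reticulum genes had 3 of 16 lower and 0 higher, with a median of -0.18. Calr, a calcium-binding chaperone, was at 104, 104 and 134 FPKM on day 7 and at 91.4, 92.2 and 91.1 FPKM on day 14 (-0.18 ± 0.02, adjusted p = 0.0122). Hsp90b1, the chaperone of the endoplasmic reticulum in its family, and Sdf2l1, a cofactor of that compartment, fell too. None of the 3 passed in any fit with 1 more library left out (0 of 3 in each of the 5). For 10 of the 16 genes all day 14 libraries were below all day 7 libraries, against 6.44% of all genes tested.

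No member passed among 16 dorsal horn peptide genes, 15 inhibitory neuron genes, 15 glutamate receptor genes, 19 ion channel genes, 13 synaptic vesicle genes, 12 neurotrophic and sensitisation genes, 24 ribosomal protein genes, 18 nuclear respiratory chain genes, 9 cell cycle genes, 9 pericyte genes, 4 muscle genes or 2 lymphocyte genes. The 18 m6A enzymes and readers also had 0 past the threshold, with a median of 0.03. The 13 mitochondrially encoded genes had a median of -0.09 without library 3 and 0.93 against library 3 alone.

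Several genes with large differences belonged to no cell type list. Rps6ka3, a growth-factor-activated kinase (ENSMUSG00000031309, chromosome X, 159210307 to 159368244), was at 1.51, 1.42 and 2.53 FPKM on day 7 and at 3.44, 3.48 and 3.41 FPKM on day 14 (1.003 ± 0.06, adjusted p = 0.0033; 0.80 ± 0.18 with all 6, adjusted p = 0.754). Sham libraries, at 3.54, 1.32 and 7.29 FPKM, differed among themselves by more than the 2 days did. Erdr1, which lies at the end of chromosome X and whose reads may be shared with near-identical copies, was at 2.24, 2.04 and 5.63 FPKM and then 10.2, 9.53 and 7.14 FPKM (1.82 ± 0.15, adjusted p = 0.0119), and in sham it ranged from 0.178 to 6.59 FPKM. One of the 2 Nnt identifiers, which overlap each other, was listed at 0 in all day 7 libraries and at 2.93, 1.36 and 1.57 FPKM on day 14, while the other was at 3.65, 4.01 and 1.97 FPKM and then 0.5246, 1.28 and 1.28 FPKM. How reads were divided between the 2 Nnt models is uncertain.

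Other genes changed in libraries 1 and 2 with library 3 elsewhere. Gsn, an actin-severing protein of oligodendrocytes and other cells, was at 113, 114 and 45.9 FPKM and then 70.3, 71.5 and 67.6 FPKM. Igsf1, an immunoglobulin-domain membrane protein, and Nid1, a basement membrane protein, likewise fell against libraries 1 and 2, with library 3 within or below the day 14 range. Adipor2, an adiponectin receptor, Etnppl, an astrocyte enzyme of phosphoethanolamine breakdown, Ebf2, a transcription factor, and Hes1, a Notch target, rose against libraries 1 and 2, and all but Hes1 were higher in library 3 than in every day 14 library. Of 6 tested genes listed here under RNA lacking a poly(A) tail, an origin of their reads that was not tested, Gm23935 and Lars2 rose. Library 3 held only 0.501 and 1.18 FPKM of them, against 325 to 342 and 11.9 to 12.1 FPKM in the other day 7 libraries. In sham libraries 1, 2 and 3, Gm23935 was at 3891, 3812 and 1.43 FPKM. Lars2 was at 108, 108 and 1.11 FPKM there, so sham libraries 1 and 2 were above day 14 for both genes.

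The direction between day 7 and day 14 was set beside sham and day 3, as a description. Mbp was at 1786 to 1845 FPKM in sham and 1613 to 1630 FPKM on day 3, so day 7 held the highest and day 14 the lowest levels of the 4 groups. Hmgcs1 had the same order, with 106 to 120 FPKM in sham and 104 to 107 FPKM on day 3. Hbb-bs was at 64.5 to 110 FPKM in sham and 144 to 174 FPKM on day 3, which placed day 14 between sham and day 3. S100a9 was at 2.51 to 3.73 FPKM in sham, above its day 14 values. Mt2 and Dbp were on day 14 near their day 3 levels (254 to 256 and 11.5 to 12.8 FPKM). Ctla2a was higher on day 14 than in every other library, with 1.36 to 1.79 FPKM in sham and 2.64 to 3.12 FPKM on day 3.

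**Figure D4:**
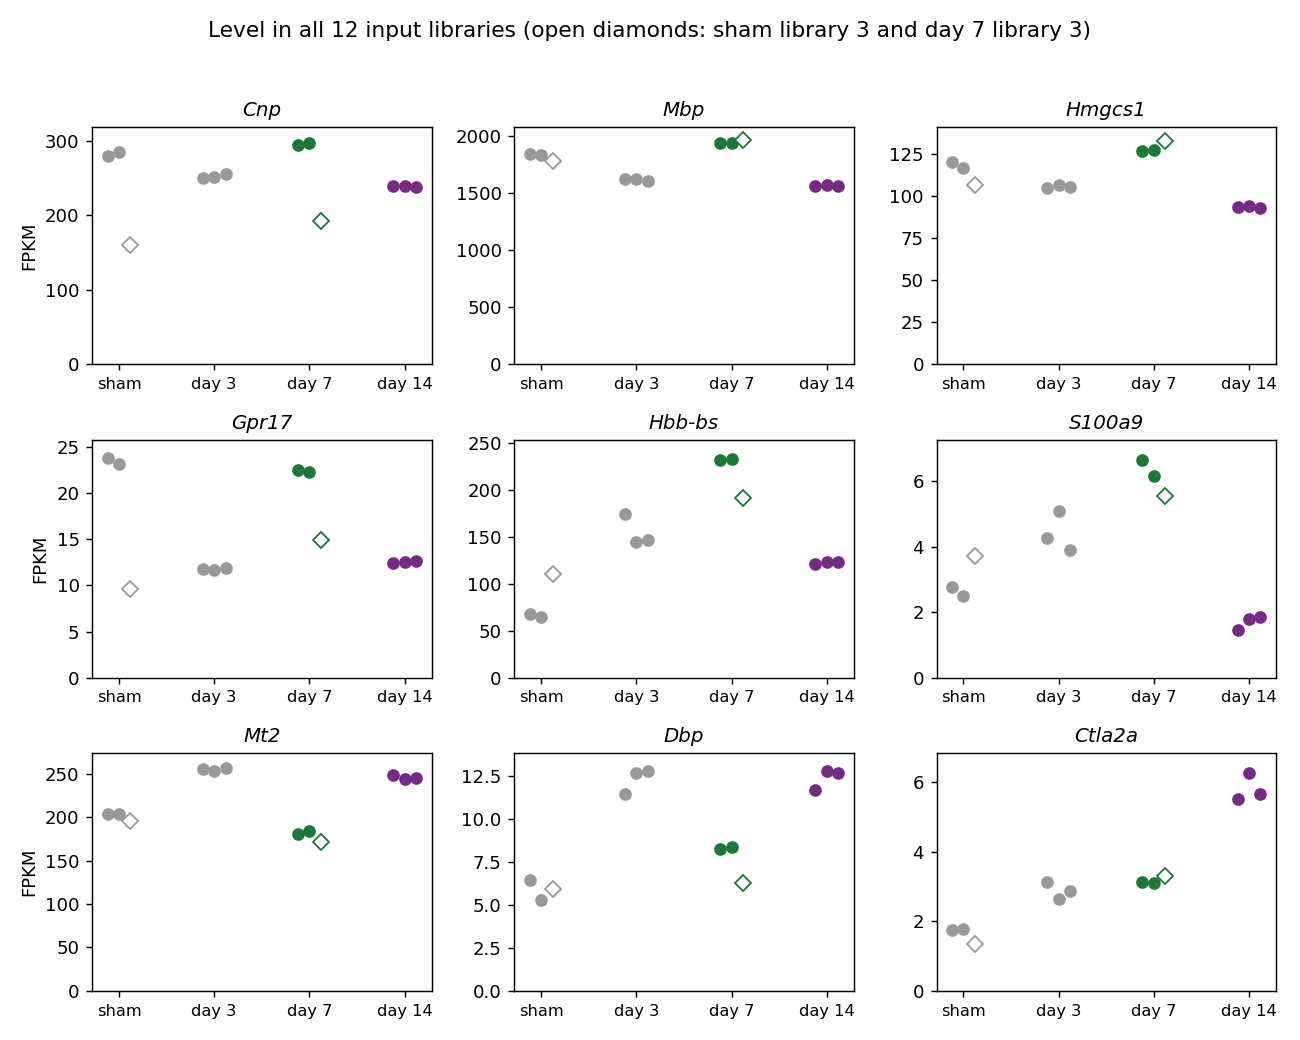
FPKM (vertical axis, from 0) of 9 genes in all 12 input libraries by group; open diamonds are sham library 3 and day 7 library 3. Cnp and Gpr17 are lower in both open diamonds than in the other libraries of their group, while S100a9 on day 14 (1.45 to 1.85 FPKM) lies below every other library.

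The share of genes with an m6A peak was close to that of all genes for those that rose and those that fell; the difference was not tested. The peak lists hold 34136 peaks for day 7 and 38655 for day 14, 1 list per group, so no replicate comparison is possible. Of the 45 genes that rose, 31 had a peak on day 7 and 36 on day 14 (68.9 and 80.0%), and of the 112 that fell, 78 and 87 did (69.6 and 77.7%). Over all genes tested the shares were 69.6 and 77.8%. The genes that changed had higher median levels (17.1 FPKM for those that rose and 27.1 FPKM for those that fell) than all genes (4.48 FPKM).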

How the data were processed

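Input RNA-seq of mouse spinal cord was compared between the 3 libraries of day 14 and the 3 of day 7 after spared nerve injury, grouped by the sample labels. The authors deposited FPKM per gene, per the file headers, and peak lists with a fold enrichment as a ratio per peak, per the file headers. The submitters' processing notes name HISAT2, StringTie, ChIPseeker and edgeR without versions. No source used here gives the genome build or the peak caller. RefSeq GRCm38.p6 held 14738 of the symbols, and 99.98% of these lay over their RefSeq namesake. No value column was left without a sample (0).

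Genes with a mean of at least 0.5 FPKM over the 6 libraries were fitted as log2(FPKM + 0.5) in limma 3.58.1 (R 4.3.3; a trended eBayes after lmFit, two-sided, Benjamini-Hochberg over 15545 genes, threshold 0.05), with all 6 libraries and without day 7 library 3. Standard errors are moderated. Depth is unknown, so only the variation between libraries sets the precision. The fit was tested on simulated data with known changes. Gene lists (40 lists, 561 genes) got counts and medians only. The members and lists were chosen with earlier results of these data known. Named genes are up to 15 per direction with the largest change among called genes whose groups did not overlap, with a mean of at least 1 FPKM in either group and no predicted symbol, every list member that passed, and the 2 members of smallest p per list. Fa2h, Gal3st1, and the members Ngp, Lcn2 and Bpgm were named after their values were seen. Results of some genes that the rule names are not reported here.

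Same-numbered libraries of the 2 days did not deviate together (correlations 0.0088, 0.089 and -0.0038), so numbers were not taken as pairs. Alternatives were other pseudocounts, filters and scalings, robust eBayes, array weights, a replicate block, 4-group fits and leaving out each library. Averaging near-identical libraries, with and without day 7 library 3, was added after the data were seen.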

Additional observations from a re-analysis of the deposited data

How the results depend on the processing

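With all 6 libraries, where 0 genes were higher and 0 lower in limma, other settings gave 1 and 3 (rescaled to TPM), 0 and 6 (quantile), 2 and 3 (fit of 4 groups, 12 libraries), 169 and 251 (4 groups, 10 libraries, without day 7 library 3 and sham library 3) and 32 and 95 (array weights). Leaving out 1 library gave 0 to 45 higher and 0 to 112 lower. Averaging near-identical libraries into 6 samples over 4 groups gave 0 and 0 (20 and 9 with an unadjusted p below 0.05). Without day 7 library 3 (45 and 112), no filter gave 6 and 38, a filter of 5 FPKM gave 86 and 175, a fit of 4 groups with 11 libraries gave 1 and 2, and one with 10 libraries gave 169 and 251, with 142 of the 157 genes shared. Averaged into 5 samples, it gave 5 and 4 (3 of the 157 shared); each day is then 1 sample, assumed to vary like the 2 sham samples, which alone set the spread. Leaving out 1 more library gave 5 to 10 higher and 18 to 32 lower. The replicate block gave 7 and 19 (22 of the 157 shared), and 0 and 0 with all 6 libraries; the block is not taken from a known pairing. All 157 kept their direction in every alternative without library 3 that tested them, except 1 under quantile scaling. With library 3 back in, Adipor2 (-0.033), Prph (0.12), Glul (-0.030), Mag (0.15) and Gal3st1 (0.070) turned direction. Pseudocounts, TPM, median-of-ratios, quantile scaling, array weights and robust eBayes left both counts within 1.5 times. The causes were not tested. Depth is unknown, and calls at low FPKM rest on the spread of 5 libraries.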
